A study of Monodelphis domestica with 5 samples.

Results

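Broad H3K4me3 domains are long, unbroken stretches of chromatin in which histone H3 carries trimethyl groups on lysine 4. In fibroblasts of the gray short-tailed opossum, Monodelphis domestica, 870 of the 75115 H3K4me3 peaks on chr1 to chr8 were such domains, chosen by a single criterion, a width of at least 10000 bases in the deposited peak list. The comparisons are with the 74245 narrower H3K4me3 peaks of the same list, split into 38554 peaks of under 2 kb, 30109 peaks of 2 to 5 kb and 5582 peaks of 5 to 10 kb, each class without its upper bound. Because width chose the domains, their widths and H3K4me3 scores are given as a description. The other histone marks were measured in separate libraries that the criterion did not use.

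All libraries came from primary ear fibroblasts of 1 adult male, the offspring of an LL1 mother and an LL2 father, expanded in culture and taken, per the labels, at passages 4 to 6, while the study's methods give a lower passage number. Chromatin was digested with micrococcal nuclease without crosslinking (native ChIP) and divided between 4 immunoprecipitations, for H3K4me3, H3K9Ac, H3K9me3 and H3K27me3, each sequenced as 1 library beside a library of input chromatin. The labels mention pooling of chromatin between sisters, and how that applies to a single male is not stated. There are no treated and control groups, and no mark was measured more than once, so every comparison is between sets of peaks in the same cells.

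H3K4me3 is laid down around active and poised promoters, mostly over CpG-rich starts of genes, and usually spans a few nucleosomes on each side of the start. In a minority of genes it spreads over a much longer stretch, often across the whole gene, and in mammalian cells such domains are known to favour genes that define a cell type and genes with high and steady transcription. H3K9Ac, acetylation of lysine 9, accompanies active promoters. H3K9me3 marks constitutive heterochromatin, repeats and silenced alleles, and H3K27me3 is the mark of Polycomb repression. Lysine 9 of 1 histone tail cannot be acetylated and methylated together. If H3K9Ac and H3K9me3 are both present at the same bases, they lie on different tails, alleles or cells, which peak lists cannot tell apart. Overlapping peaks do not by themselves show that both marks are present.

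The domains made up 1.16% of the H3K4me3 peaks and 6.34% of the H3K4me3 bases, 12.3 of 194 Mb. Their median width was 12456.5 bases, with quartiles of 10953.5 and 15088.2 bases, against a median of 1947 bases in the narrower peaks. Most were close to the criterion: 371 were under 12 kb wide, 280 were of 12 to 15 kb, 137 of 15 to 20 kb, and 82 reached 20 kb or more. The 3 narrowest domains had widths of 10000, 10002 and 10008 bases, while the widest peak below the criterion missed it by 1 base and the next 2 had widths of 9995 bases each. The MACS score of a peak is minus 10 times the log10 of its p-value and stops near 3100 in these lists. It was at that ceiling in 756 domains (86.9%), in 56.0% of the peaks of 5 to 10 kb and in 6.75% of all narrower peaks. The lowest score among the domains was 1070, and the median score of the narrower peaks was 231. Since a score grows with the number of reads under a peak, width and score are not independent descriptions, and the 5010 narrower peaks at the ceiling serve below as a second comparison set.

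The 10 widest domains were spread over 6 chromosomes, and each of them was at the score ceiling. The widest, at chr1:639629070-639686447 (MonDom5), spanned 57378 bases. It lay within 10000 bases of the 3′-UTR region that the study amplified for RTN4, which encodes the membrane-shaping reticulon Nogo. H3K9Ac covered 49.98% of it in 5 peaks, and 1 weak H3K9me3 peak, with a score of 50.8, covered 3.26%. Its next H3K4me3 peak began only 5 bases away. The second widest, chr4:382710582-382765817, spanned 55236 bases and held 7 H3K9Ac peaks over 74.1% of its length. It held no H3K9me3 peak at a score of at least 50, the threshold used throughout for H3K9me3 and H3K27me3.

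The third, chr6:122835005-122879480, was 44476 bases wide and 76.2% acetylated, with an H3K9me3 peak of score 300.8 over 7.09% of it. The fourth, chr3:68418683-68462407, was 43725 bases wide and the most completely acetylated of the 10, at 95.9%. The fifth, chr6:36296185-36339717, was 43533 bases wide and held the 3′-UTR region of CD2A1_MONDO, the list's name for the cell cycle inhibitor gene CDKN2A. That domain carried 6 H3K9Ac peaks over 79.5% of its bases and 2 H3K9me3 peaks over 10.2%. The other 5 domains were 36677 to 42090 bases wide, with H3K9Ac over 52.1% to 91.8% of their bases, and 1 of them held an H3K9me3 peak. In all, 5 of the 10 widest domains held H3K9me3 and none held H3K27me3. No gene was assigned to 8 of these 10, since no annotation of MonDom5 was used here.

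H3K9Ac was present in nearly every broad domain. At least 1 base of an H3K9Ac peak lay in 869 of the 870 domains (99.9%, exact 95% binomial interval 99.4 to 100), while 58.9% of all H3K4me3 peaks on these chromosomes had H3K9Ac. These intervals cover counting error only and treat peaks as independent, and with 1 library per mark no test between groups was made. The share rose with width through the narrower peaks, from 33.6% in those of under 2 kb to 82.6% in those of 2 to 5 kb and 98.5% (98.2 to 98.8) in those of 5 to 10 kb. Narrower peaks at the score ceiling reached 99.7% (99.5 to 99.8). A domain has more bases in which to meet another peak, so the share of bases is the more even measure.

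By that measure H3K9Ac covered 76.7% of the bases in domains, against 57.7% in all narrower peaks, 75.7% in the peaks of 5 to 10 kb and 79.4% in narrower peaks at the ceiling. The domains were thus above the narrower peaks as a whole and 0.921 percentage points above the class next in width, while the difference from peaks of the same top score was -2.77 percentage points. Per chromosome, the share in domains ranged from 74.8% to 79.5%, above the range of 55.2% to 59.5% for all narrower peaks on 8 of 8 chromosomes, but above the 5 to 10 kb class on only 5 of 8. The chromosomes share their libraries and are no replicates.

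Among the domains themselves, acetylation varied widely. The median domain had 79.4% of its bases under H3K9Ac, with quartiles of 66.3% and 90.2%. The mark covered more than 90% of the bases in 222 domains (25.5%) and the whole length in 14. It covered less than 50% in 60 domains (6.90%), and the lowest share among those with any H3K9Ac was 15.04%. The acetylated length followed the domain's width (Pearson r = 0.85, Spearman rho = 0.67, n = 870 domains), a description that partly follows from the width setting the upper limit of the acetylated length.

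**Figure D1:**
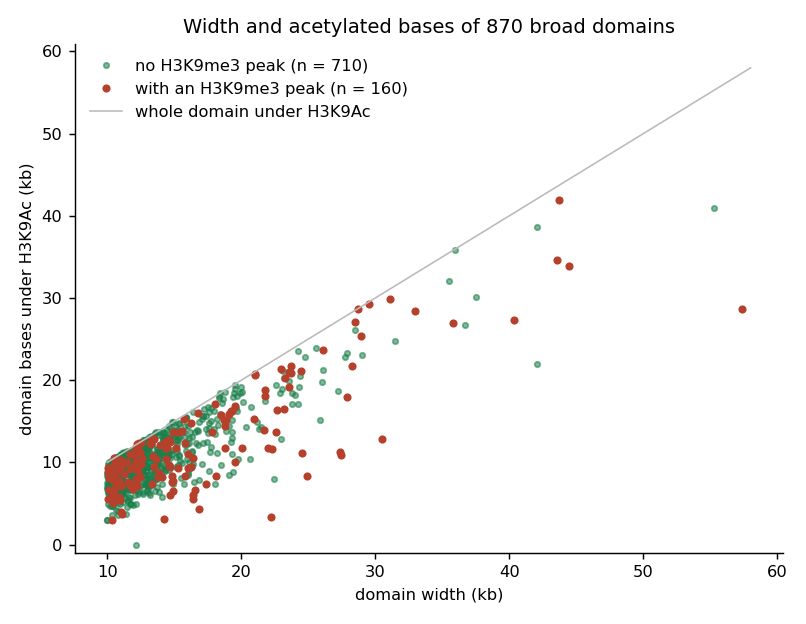
Bases under H3K9Ac (kb) against domain width (kb), 1 point per domain, with the 160 domains that hold an H3K9me3 peak in red and the other 710 in green. The grey line is a domain acetylated over its whole length: most points lie a little below it, and the single point at 0 is the domain on chr8 with no H3K9Ac.

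The single domain without H3K9Ac was chr8:156318515-156330663, 12149 bases wide. Its H3K4me3 score of 1498 was below the ceiling, it held neither H3K9me3 nor H3K27me3, and the next H3K4me3 peak was 619 bases away.

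In most domains the acetylation was broken into pieces. A domain held 1.91 H3K9Ac peaks on average: 331 domains held 1, 356 held 2, 133 held 3, and 49 held 4 to 7. The peaks of 5 to 10 kb held 1.25 on average. Per Mb of H3K4me3 peak the order was the reverse, with 134.5 H3K9Ac peaks in domains and 191.5 in peaks of 5 to 10 kb. The largest piece nevertheless made up most of the acetylated bases, with a median of 80.2% over domains. Of the 1738 edges of acetylated domains, 16.6% had H3K9Ac up to the last base, and the bare stretch at an edge had a median of 452 bases with quartiles of 88.2 and 1344 bases. Acetylation ran past an edge of the H3K4me3 domain in 254 domains (29.2%). Bare stretches between pieces accounted for 36.5% of the unacetylated bases and the edges, with the single bare domain, for the rest.

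The position of the gaps differed from that in narrower peaks. With each peak divided into 10 equal bins, H3K9Ac covered 56.4% of the bases in the first bin of domains and 54.0% in the last, and 78.5% to 83.9% in the bins between them, a nearly flat top. In peaks of 5 to 10 kb it rose from 45.3% and 43.9% at the ends to 89.4% in the middle, and in narrower peaks at the ceiling to 95.2%. Over the central 1000 bases the order was the same, with 83.4% in domains, 89.6% in peaks of 5 to 10 kb and 96.1% in narrower peaks at the ceiling. The middle of a broad domain was therefore less often acetylated than the middle of peaks in these 2 sets, although more often than in all narrower peaks, with 54.97%. The middle of a domain need not be the start of a gene, and gene starts were not analysed here.

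The H3K9Ac peaks that met domains were wider and stronger than those over narrower H3K4me3 peaks as a whole. The 1656 H3K9Ac peaks that met a domain had a median width of 4661 bases, a median score of 1271, and 29.4% of them were at the ceiling. The 44452 that met only narrower H3K4me3 peaks had a median width of 2158 bases and a median score of 260, with 1.97% at the ceiling. Domains were 1.16% of H3K4me3 peaks and 6.34% of H3K4me3 bases, and took in 3.24% of the H3K9Ac peaks on chr1 to chr8. They took in 256 of the 293 H3K9Ac peaks that were themselves at least 10000 bases wide, spread over 253 domains. The remaining 37 all lay over H3K4me3 peaks that missed the width criterion.

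**Figure D2:**
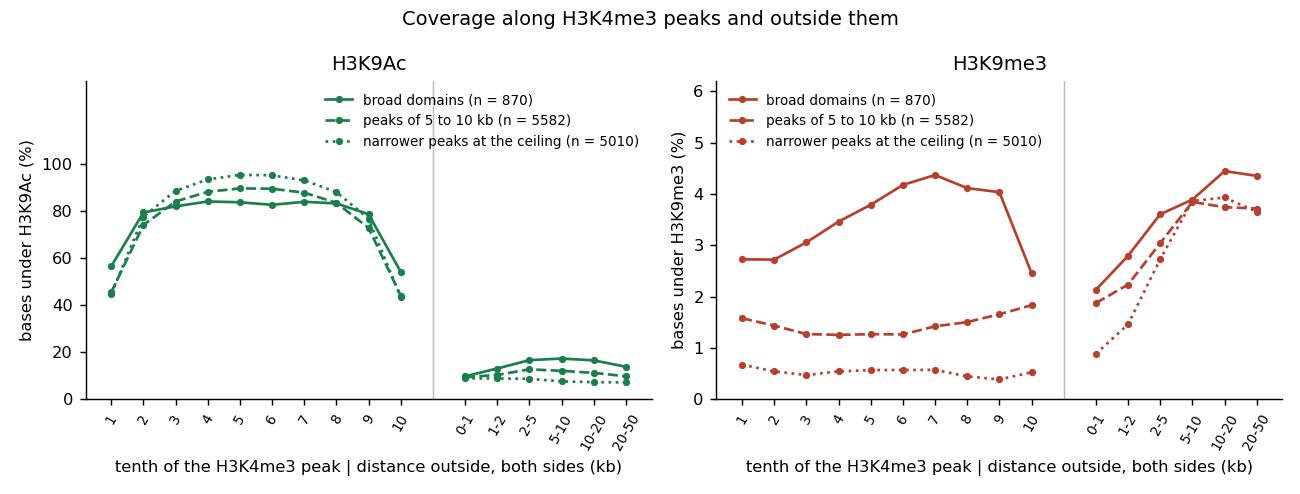
Percent of bases under H3K9Ac (left) and H3K9me3 (right) in each of 10 equal bins along the H3K4me3 peak and at 6 ranges of distance outside it (kb, both sides summed), for 870 domains (solid), 5582 peaks of 5 to 10 kb (dashed) and 5010 narrower peaks at the score ceiling (dotted). H3K9Ac is flatter and lower in the middle of domains, and H3K9me3 is higher in every bin of domains than in either other set.

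H3K9me3, the heterochromatin mark, was found in more of the broad domains than of any narrower class. It met 160 of 870 domains (18.4%, 15.9 to 21.1), against 3.94% of all H3K4me3 peaks, 5.43% (4.85 to 6.06) of the peaks of 5 to 10 kb, 4.40% of those of 2 to 5 kb and 3.04% of those of under 2 kb. Narrower peaks at the score ceiling had the lowest share, at 2.18% (1.79 to 2.62). The share in domains was higher than in the 5 to 10 kb class on 8 of 8 chromosomes, with ranges of 13.3% to 22.6% and 4.22% to 7.00%.

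Width alone raises the chance of meeting a peak, but the share of bases was also highest in domains. H3K9me3 covered 3.49% of the bases in domains, 1.45% in peaks of 5 to 10 kb, 1.75% in all narrower peaks and 0.528% in narrower peaks at the ceiling. The central 1000 bases gave 3.83%, 1.19%, 1.703% and 0.468%. The share of bases also rose with width among the domains. It was 2.09% in those of 10 to 12 kb, 2.87% in those of 12 to 15 kb, 4.34% in those of 15 to 20 kb and 6.15% in those of 20 kb or more. Of the 82 domains in the last class, 40 (48.8%, 37.6 to 60.1) held an H3K9me3 peak, against 43 of 371 (11.6%, 8.52 to 15.3) in the first.

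H3K9me3 was lower inside domains than over the 50 kb around them, and in narrower peaks that gap was larger. In the 50 kb on each side it covered 4.20% of the bases around domains, 3.63% around peaks of 5 to 10 kb and 3.57% around narrower peaks at the ceiling. The broad domains were thus nearer to their surroundings (3.49% inside) than the strong narrower peaks were (0.528% inside). Close to the domains the direction was the opposite, with 2.13% in the first 1000 bases outside and 2.79% in the next 1000, both below the share inside. For narrower peaks at the ceiling the first 1000 bases gave 0.882%, above the share inside. The domains of 20 kb or more differed from the domains as a whole, with 6.15% of the bases under H3K9me3 inside and 5.60% around them. That class includes a chr1 domain of 27456 bases wholly under H3K9me3. Without this domain the share inside the class would fall below 5.60%. The share around the remaining domains was not computed, so the order of the 2 shares without it was not tested.

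**Figure D3:**
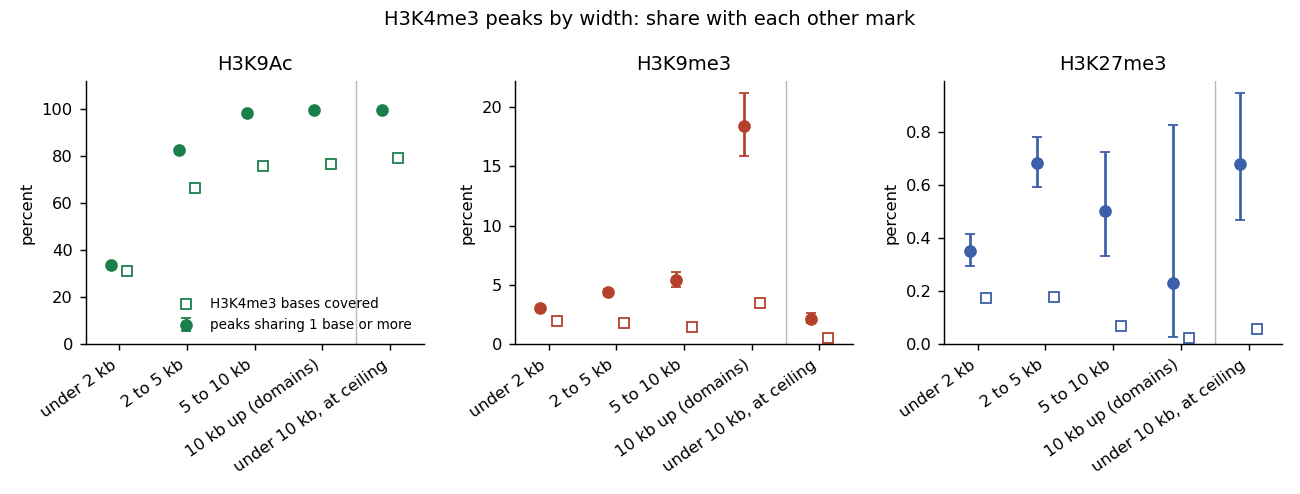
Percent of H3K4me3 peaks that share at least 1 base with H3K9Ac, H3K9me3 or H3K27me3 (filled, with exact 95% binomial intervals) and percent of H3K4me3 bases covered (open), by H3K4me3 width, with narrower peaks at the score ceiling on the right of each panel. H3K9Ac levels off from 5 kb, H3K9me3 is highest in domains, and H3K27me3 is below 1% in every set.

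In most of the 160 domains H3K9me3 was a local patch. A single H3K9me3 peak was present in 138 of them and at most 3 in any. The median share of the domain under H3K9me3 was 13.5%, with quartiles of 9.15% and 19.7%, and 79.0% of the 186 stretches were whole H3K9me3 peaks lying inside the domain. These peaks resembled other H3K9me3 peaks in size: the 185 that met a domain had a median width of 1985 bases and a median score of 106, against 2012 bases and 115 for those in narrower H3K4me3 peaks and 1924 bases and 76.0 for those in no H3K4me3 peak. Domains with H3K9me3 were wider, with a median of 14632.5 bases, than those without, with 12275.5. Their median acetylated share was 76.9%, against 79.8% without H3K9me3.

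H3K9me3 in domains lay mostly on bases that were also under H3K9Ac. Of its 430 kb in domains, 263 kb (61.1%) were also acetylated, below the 76.7% of all domain bases, with a range of 53.0% to 83.0% over chromosomes. In peaks of 5 to 10 kb the figure was 30.5% (21.1% to 41.6% over chromosomes) although their bases were acetylated to nearly the same extent, and in all narrower peaks it was 16.6% (14.4% to 20.5%). The 2 sets of chromosome values did not overlap between domains and either of these groups. Narrower peaks at the ceiling gave 44.0%, with a range of 6.66% to 60.02% that overlapped that of the domains. Counted by peak, 132 of the 160 domains (82.5%, 75.7 to 88.0) had a base under both marks, against 188 of 303 peaks of 5 to 10 kb (62.0%, 56.3 to 67.5). Put the other way, H3K9me3 covered 2.78% of the acetylated bases in domains and 0.583% in peaks of 5 to 10 kb, a wider gap than in unacetylated bases, where it covered 5.81% and 4.14%.

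**Figure D4:**
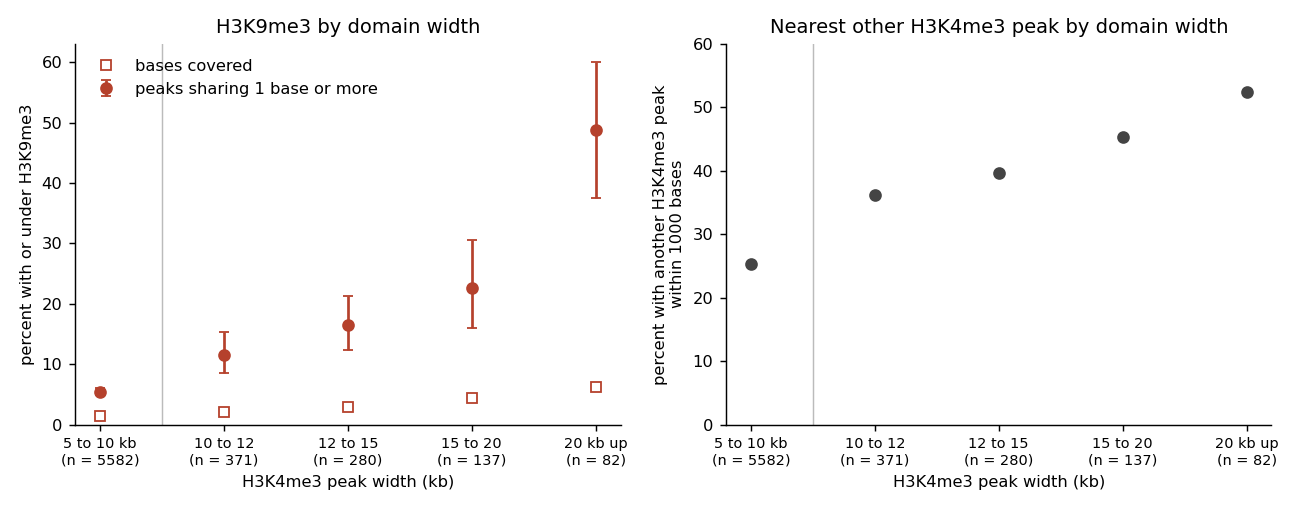
Left, percent of H3K4me3 peaks with H3K9me3 (filled, exact 95% binomial intervals) and percent of bases under H3K9me3 (open) by peak width in kb. Right, percent with another H3K4me3 peak within 1000 bases. Domains of 20 kb up have the highest value in both panels, 48.8% and 52.4%.

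The 5 domains with the largest share under H3K9me3 were the only ones with more than 50% of their bases covered, and 4 of them lay in 2 pairs. The pair on chr1 stood apart from the rest. Its first member, chr1:333219564-333247019, was 27456 bases wide and lay under H3K9me3 over its whole length, in a single H3K9me3 peak at the ceiling of 3100. H3K9Ac covered 39.6% of it in 6 peaks, of which the strongest scored 534. It was the only domain with both repressive marks, as 2 H3K27me3 peaks of score up to 54.1 covered 10.1%. It held the amplified regions of 2 predicted transcripts, XM_001377829.1 and XM_001377862.1. The second member, chr1:333250108-333266518, began 3088 bases further on and had 92.9% of its 16411 bases under H3K9me3 and 34.0% under H3K9Ac. All 4 marks were thus called in 1 stretch. Whether that stretch also stands out in the input chromatin was not tested, as no read counts were used.

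The second pair was part of a run of 4 domains at chr5:184161383-184236103. The domain at chr5:184203507-184219103 was 61.5% under H3K9me3 and 88.5% under H3K9Ac, and the one at chr5:184225479-184236103 was 53.8% and 89.8%, with H3K9Ac at the ceiling in both. In both, most bases under H3K9me3 were also under H3K9Ac, with H3K9me3 scores of 676 and 658. The chr1 pair differed in strength: its H3K9me3 was at the ceiling, and its strongest H3K9Ac peaks scored 534 and 292. The fifth domain, chr1:178636942-178649106, was 50.3% under H3K9me3 and 65.4% under H3K9Ac. The 10 domains with most H3K9me3 bases held 23.4% of all H3K9me3 bases in domains. Without the chr1 pair the domains still exceeded the narrower peaks in share of bases under H3K9me3, by 1.40 percentage points in place of 1.74.

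H3K27me3 was nearly absent from broad domains. It met 2 of 870 (0.230%, 0.0278 to 0.828), while 0.495% of all H3K4me3 peaks had it, so the interval of the domains included the share of all peaks. It covered 0.0251% of the bases in domains, against 0.0701% in peaks of 5 to 10 kb and 0.156% in all narrower peaks. None of the central 1000 base windows of the domains held any, and a count of 0 in 870 allows a share of up to 0.345%, taken as 3 counts of 870 and not as a binomial interval. One of the 2 domains was the chr1 domain under all 4 marks. Without the chr1 pair the share of domains with H3K27me3 was 0.115%. The other, chr2:174827516-174840023, had 1 H3K27me3 peak of score 55.7 over 2.60% of its 12508 bases and was otherwise acetylated over 87.2%. Both H3K27me3 scores were close to the threshold of 50. The H3K27me3 list is short, with 6668 peaks at that threshold in all, which limits what can be seen. H3K9Ac without either repressive mark was the state of 708 domains (81.4%, 78.6 to 83.9), against 56.9% of all H3K4me3 peaks, 93.2% (92.5 to 93.9) of the peaks of 5 to 10 kb and 97.2% (96.7 to 97.6) of the narrower peaks at the ceiling. It fell from 88.4% in domains of 10 to 12 kb to 51.2% in those of 20 kb or more, and a wider peak has more bases in which to meet a repressive mark.

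Some genes of the study could be placed. The study had amplified 3′-UTR regions of genes, nearly all of them candidates chosen in these same cells because their promoters carried H3K4me3, H3K9Ac and H3K9me3 together, so their H3K9me3 is no independent evidence about the genes. IGF2R was on the list without being such a candidate. Of 177 listed regions on chr1 to chr8, 33 (18.6%) lay inside a broad domain and 49 (27.7%) within 10000 bases of 1, which involved 44 domains. H3K9me3 was called in 34 of these 44 domains (77.3%) and in 126 of the other 826 (15.3%), a difference that the choice of genes built in. The median acetylated shares were 83.2% and 79.0%. A domain that holds the 3′-UTR need not be centred on the promoter.

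Of the gene lists set for this report, the inducible genes had 8 of 24 members among the placed regions, and 6 of those 8 were at a domain: CYP1B1, DUSP5, MCL1, MYC and PTGS2 inside, NFKBIZ within 10000 bases. FOSL2 and JUNB were farther away. Of 3 placed mesenchymal regulators only TWIST1, of 4 placed matrix and cytoskeleton genes only VIM, and of 2 placed developmental genes only MEIS1 were at a domain. RUNX1, NR2F1, FN1, TPM1, VCL and TBX15 were farther away. No ribosomal protein gene was listed under its symbol among the amplified regions. The study's promoter island of Rpl17, a member of that list, lay in an H3K4me3 peak of 2688 bases, below the criterion. Among all 177 listed regions, 49 (27.7%) were inside or within 10000 bases of a domain, and nearly all were chosen for their marks in these cells. The other members of these lists were not analysed here, and the counts are too small to say how the lists differ.

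DUSP5 and DUSP6, feedback phosphatases of the MAP kinase pathway, lay in domains of 24493 bases (chr1:101427488-101451980) and 10680 bases (chr8:62624617-62635296). H3K9Ac covered 45.4% and 70.9% of them. MCL1 and BCL2L1, which encode survival proteins of the BCL2 family, lay in domains of 15782 bases (chr2:495743720-495759501) and 13144 bases (chr1:401835808-401848951). The MCL1 domain was 78.6% acetylated with H3K9me3 over 21.1%, whereas the BCL2L1 domain lay wholly under H3K9Ac and held no H3K9me3.

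ID2 and ID3, inhibitors of basic helix-loop-helix factors, had domains of 13276 bases (chr1:531425832-531439107) and 11116 bases (chr4:359888047-359899162). These were 96.1% and 90.1% acetylated and had H3K9me3 over 10.6% and 15.1%. The domain of MYC, a growth-promoting transcription factor, was 10562 bases wide (chr3:403993891-404004452) and 88.4% acetylated. Its only H3K9me3 peak was below the threshold. The domain of PTGS2, the inducible cyclooxygenase, was 10412 bases wide (chr2:82226338-82236749), with H3K9Ac over 83.2% and H3K9me3 over 17.2%. CYP1B1, a cytochrome P450 induced by aryl hydrocarbons, had a domain of 14678 bases (chr1:663109321-663123998) with 2 H3K9me3 peaks over 27.3%.

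VIM, the intermediate filament gene of mesenchymal cells, lay in a domain of 19194 bases (chr8:256729688-256748881). H3K9Ac covered 84.8% of it and 3 H3K9me3 peaks covered 36.0%, the highest H3K9me3 share among the domains with a gene symbol except that of TMEM70, at 39.1%. TWIST1, a transcription factor of mesenchyme, lay in a domain of 13505 bases (chr8:304139027-304152531) that was 95.1% acetylated with H3K9me3 over 19.7%. LMNA, which encodes nuclear lamins A and C, lay within 10000 bases of a domain of 22982 bases (chr2:190975493-190998474) with 92.8% under H3K9Ac and 12.04% under H3K9me3.

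MEIS1, a homeobox gene, had 2 domains. Its promoter CpG island lay in a domain of 25574 bases (chr1:624937578-624963151), 93.5% under a single H3K9Ac peak, and its 3′-UTR region in another of 15356 bases (chr1:624790189-624805544), 95.8% under H3K9Ac. Neither held an H3K9me3 peak at the threshold, and the promoter domain held 1 below it. IRX2, another homeobox gene, had a domain of 23740 bases (chr3:94843893-94867632), 91.4% acetylated, with a weak H3K9me3 peak of score 52.1 over 4.45%. The peaks at the promoter islands of Cstb, Igf2r and Rpl17, assayed together with that of Meis1 in the study, were below the criterion with 9543, 6973 and 2688 bases.

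HNRNPF, an RNA-binding protein gene, lay in a domain of 13304 bases (chr1:343905825-343919128) and DDX5, an RNA helicase gene, in one of 18835 bases (chr2:229950043-229968877). H3K9Ac covered 55.1% and 80.7% of them, and H3K9me3 covered 22.8% and 14.4%.

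Besides these and the domains at NFKBIZ and TMEM70, 16 domains that held or lay near a region with a gene symbol were summarised. They were 10195 bases (GAS1, a growth arrest gene) to 27339 bases (DSTN, which encodes the actin-severing protein destrin) wide. Their acetylated share was lowest at DSTN, with 41.4%, and highest at TGIF1, a homeobox repressor, with 99.9%. SLC38A2, an amino acid transporter gene, was also low, with 46.1% of a domain of 18135 bases. The protocadherin gene PCDH7 had a domain of 19322 bases, 84.4% acetylated, and ADM, which encodes the vasodilator peptide adrenomedullin, had a domain of 16781 bases, 95.5% acetylated.

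The neighbourhood of the domains was rich in H3K4me3. The median distance from a domain to the next H3K4me3 peak was 1647 bases, with quartiles of 496 and 4993, against 3523 bases for peaks of 5 to 10 kb, 5036 for all narrower peaks and 6448 for narrower peaks at the ceiling. Another peak lay within 1000 bases of 350 domains (40.2%), of 25.4% of the peaks of 5 to 10 kb and of 21.2% of the narrower peaks at the ceiling. Among domains this share rose with width, from 36.1% in the class of 10 to 12 kb to 52.4% in that of 20 kb or more. These values come from the list that chose the domains and are given as a description. A peak caller can divide 1 enriched stretch into several peaks. When H3K4me3 peaks within 1000 bases of each other were merged, 1534 stretches reached 10000 bases.

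Farther out the enrichment persisted. In the 50 kb on each side lay on average 6.82 other H3K4me3 peaks for a domain, 5.30 for a peak of 5 to 10 kb and 3.88 for a narrower peak at the ceiling, and only 5 domains had none. H3K9Ac, which the criterion did not use, covered 14.7% of these flanks against 10.4% and 7.32%. It was 9.65% in the first 1000 bases outside a domain, rose to 17.2% between 5000 and 10000 bases, and was 13.8% between 20000 and 50000 bases. Peaks of 5 to 10 kb had a flank profile of the same shape at a lower level, from 9.30% in the first 1000 bases to 12.6% between 2000 and 5000 and 9.70% between 20000 and 50000. Around narrower peaks at the ceiling it fell with distance from 8.81% to 7.10%.

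The domains were unevenly placed along the chromosomes. Their density ranged from 0.176 per Mb on chr7 to 0.330 per Mb on chr8, and their share of the H3K4me3 peaks of a chromosome from 0.912% on chr3 to 1.44% on chr8. The median distance between neighbouring domains was 1961063 bases, but 142 of the 862 neighbouring pairs (16.5%) were within 100 kb of each other and 46 within 10000 bases. Joined at 100 kb, 239 domains (27.5%) fell into groups: 65 of 2 domains, 20 of 3, 11 of 4 and 1 of 5.

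The group of 5 was at chr4:205786987-205884849, where domains filled 69.0% of 97863 bases and were 76.7% acetylated. The group with most domain bases was chr4:226097202-226240387, whose 4 domains covered 91948 bases and included the ninth widest of all. Groups differed in their marks. The 4 domains at chr2:71781020-72014156 were 96.9% acetylated and held no H3K9me3, those at chr5:102501715-102679643 were 63.5% acetylated and held none either, and those at chr5:184161383-184236103 were 87.9% acetylated with H3K9me3 over 47.8% of their bases. In the other 9 groups of 4 or more, H3K9me3 covered from 0% to 10.6%.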

How the data were processed

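Native ChIP-seq of 4 histone marks was analysed in fibroblasts of 1 male opossum. Reads were quality-filtered and mapped to MonDom5 with Bowtie, and peaks were called by the authors with MACS against input. The submitters' processing notes list CASAVA 1.7, Bowtie 1.1.2 and MACS 1.0.1. The deposited lists give positions and a score, minus 10 log10 of the MACS p-value. Read depth was not used, so no depth stands behind a single peak. The H3K4me3 and H3K9Ac lists hold scores of 50 up. H3K9me3 and H3K27me3 peaks were kept at 50 up, and 2 H3K9me3 starts below 0 were set to 0.

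Overlaps of at least 1 base, covered bases and distances were computed with Python 3.11.15, numpy 2.4.6 and pandas 2.3.3, tested on simulated peaks and checked with bedtools 2.31.1. Intervals are exact (Clopper-Pearson) 95% binomial intervals from scipy 1.17.1. Printed starts count from 1. With 1 library per mark there was no test.

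Described singly were the 10 widest domains, the 3 on each side of the criterion, any without H3K9Ac, the 5 with most H3K9me3 or H3K27me3, and those within 10000 bases of the study's amplified regions, whose positions were read from its supplement as scanned text. Of these last, a selection is described, mainly domains whose genes have well-known roles, and others, among them those without a gene symbol, are not reported here. Domains and lists were chosen with earlier results of these data known. Gene starts, base composition and sequences were not analysed here.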

Additional observations from a re-analysis of the deposited data

Results flagged for a closer look

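Outside the chromosomes compared, 48 H3K4me3 peaks were also at least 10000 bases wide. On the X chromosome there were 3 among 759 H3K4me3 peaks, from 10298 to 17160 bases wide and all at the score ceiling. All 3 held H3K9Ac, over 51.0% of their bases, and none held H3K9me3 or H3K27me3. On unplaced sequence there were 45 among 3538 H3K4me3 peaks, with a median width of 11053 bases, and these differed from the placed domains in every mark. Only 7 of the 45 were at the ceiling and 9 held H3K9Ac, over 17.8% of the bases of the 45, whereas 36 held H3K9me3 over 76.3% and 27 held H3K27me3 over 56.7%. Unplaced sequence is joined from pieces whose order and copy number are not fixed, and the part of repeats in these peaks was not tested.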

How the results depend on the processing

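The number of domains, 870, was 1734 at a width of at least 8000 bases, 219 at 15000 and 1534 with peaks within 1000 bases merged. The share with H3K9Ac was 100% at 15000 bases. The share with H3K9me3, 18.4%, was 12.9% at 8000 bases, 32.4% at 15000, 10.1% with H3K9me3 scores of at least 100, 24.3% with every deposited peak and 13.1% with at least 10% of the domain covered. The share with H3K27me3 was 0% at a score of at least 100. The difference in share of bases between domains and narrower peaks was 19.0 percentage points for H3K9Ac, 0.921 against peaks of 5 to 10 kb, and reversed to -2.77 against narrower peaks at the ceiling. For H3K9me3 it was 1.74, and 1.02 at 8000 bases, 3.44 at 15000 and 2.96 against peaks at the ceiling. For H3K27me3 it was -0.131, and -0.0631 at a score of 100, -0.223 with every deposited peak, -0.0328 against peaks at the ceiling and -0.0450 against peaks of 5 to 10 kb. Domains had 2.08 more H3K4me3 peaks in the 50 kb flanks than narrower peaks, 1.102 more in 20000 bases and 3.29 more in 100000. The median distance to the next peak differed from that of narrower peaks by -3389 bases, and by -1876 against peaks of 5 to 10 kb. The causes were not tested. The other 41 of 63 alternative values stayed within 1.5 times of the main value or, for shares of domains, inside its binomial interval. For H3K27me3 that interval is wide and rests on 2 domains: its share was 0.115% without the chr1 pair, 0.457% at 15000 bases and 0.115% with at least 10% covered. The alternative without the chr1 pair and the 5 to 10 kb comparison were added once the data had been seen.

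No paired analysis was possible because each mark had 1 library. For the same reason no replicate was left out. Genes at gene starts and base composition, both planned, were not run. With 1 animal, 1 library per mark and no read counts, neither the spread between animals nor that between libraries is known. The score ceiling hides differences among the strongest peaks.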

Other observations

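The 37 H3K9Ac peaks of at least 10000 bases outside broad H3K4me3 domains were 10010 to 22132 bases wide, with a median of 11495. A median of 91.5% of their bases, and at least 56.8%, lay under H3K4me3, so each was an acetylated stretch over H3K4me3 peaks that singly missed the width criterion.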
